A study of Anolis carolinensis with 142 samples.

Results

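The genes described here are 100 genes of the green anole (*Anolis carolinensis*), a small diurnal lizard, whose liver RNA was higher at Midday than at Midnight while their RNA in brain and eye did not follow. They are called the day-high genes of the liver below, and they are 100 of the 26479 gene IDs in the deposited count table. They were chosen by their values in these same libraries, on the scale log2(CPM + 1), where CPM is a gene's count scaled to the total count of its library. A gene needed a median of at least 2 CPM in liver and 1 CPM in brain and eye, a liver median under 8 times that of brain or eye, a Midday mean at least 0.5 above the Midnight mean in liver, and a Midday minus Midnight difference between -0.15 and 0.15 in brain and in eye. Of the 347 genes that met these criteria, the 100 with the highest ratio of the liver difference to its error (a t statistic that lets the groups differ in spread) were kept. The last gene kept had a t of 3.557 and a liver difference of 1.01, and the first gene left out had a t of 3.548 and a liver difference of 0.65.

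The libraries came from 24 wild-caught adults, each of genotype WT and each given 1 of 3 treatments. Midday animals were dissected in the early afternoon. Midnight animals were dissected late at night in the dark under a red torch, and ALAN animals (artificial light at night) in the same hours, with the same torch shone on them. Each treatment held 4 males and 4 females, and the 142 libraries covered liver, brain (with the pineal gland), eye, dorsal skin, ventral skin, testes and ovary.

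The liver is the organ that stores and releases fuel, makes most blood proteins and bile acids, and clears toxins. In mice, where it has been studied most, many liver transcripts rise and fall over the day under the joint control of a clock within the cells and of the times of feeding. A diurnal lizard is active, warm and feeding by day, so light, body temperature, food and clock time can all differ between a Midday and a Midnight animal. No source used here names the gene IDs (the RefSeq gene table matched 0 of them), so the genes are described by ID, level and position, and no function is given for any of them.

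The total of the deposited counts was 10257388 to 30952365 a library (median 21039521), and all libraries carried the same batch label. By the share of even numbers among counts of 1 to 20, the libraries fell into 2 counting classes: 42 libraries at 40.5% to 44.4% and 100 at 58.8% to 72.6%. In liver all 8 ALAN libraries and none of the 16 others were in the low class, so the light treatment and the counting class cannot be told apart there. In 15 libraries, 2 of them livers (Midday male 1 and ALAN male 1), the median correlation with the other libraries of the tissue stood apart from the rest. Genes enriched in liver (342 IDs, with a mean at least 8 times that of every other tissue in these same libraries) took 39.1% to 55.3% of the counts of every liver library. None of the 100 day-high genes was among them or among the genes enriched in any other tissue. For liver the rule largely set this in advance, as it asked for a liver median under 8 times that of brain or eye. Its lower limits on liver, brain and eye levels also work against genes enriched elsewhere. Genes enriched in liver took 0.235% to 6.08% of the counts in Midday testes, 0.648% to 3.56% in Midnight testes and 0.184% to 0.338% under ALAN. In ventral skin they took a median of 0.525% at Midday and 0.468% at Midnight, with highest values of 5.83% and 2.58%. The part of this in the values of the 100 genes was not tested. In bulk tissue, fewer cells of a type and less RNA per cell cannot be told apart.

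In liver the day-high genes had the levels the rule asked for, and these are given as a description. Averaged over the 100 genes, log2(CPM + 1) was 4.46 in the lowest Midday liver, 4.70 at the median and 5.04 in the highest (n = 8). In the Midnight livers it was 3.64, 4.01 and 4.15 (n = 8), so the averages of the Midday and Midnight livers did not overlap. Single genes overlapped more often: in 17 of the 100, every Midday liver was above every Midnight liver. These livers chose the genes and no share over all genes is given beside the 17, so nothing is read from that count. The differences of the genes ran from 0.50 to 3.32, with a median of 0.67, and 14 genes differed by at least 1. The size of these differences depended on the scaling. Over the 10534 genes with a liver median of at least 2 CPM, the median Midday minus Midnight difference was 0.11 when counts were divided by the library total. It was 0.00 after TMM normalization, which scales libraries by genes left after those of extreme ratio or extreme level are trimmed. With TMM the median of the day-high genes was 0.57, and only 68 of the 100 still differed by at least 0.5, the limit of the rule. The 50 most abundant liver genes took 36.9% to 50.0% of the counts in Midday livers and 42.7% to 51.8% in Midnight livers. Their part in the gap between the scalings was not tested.

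**Figure D1:**
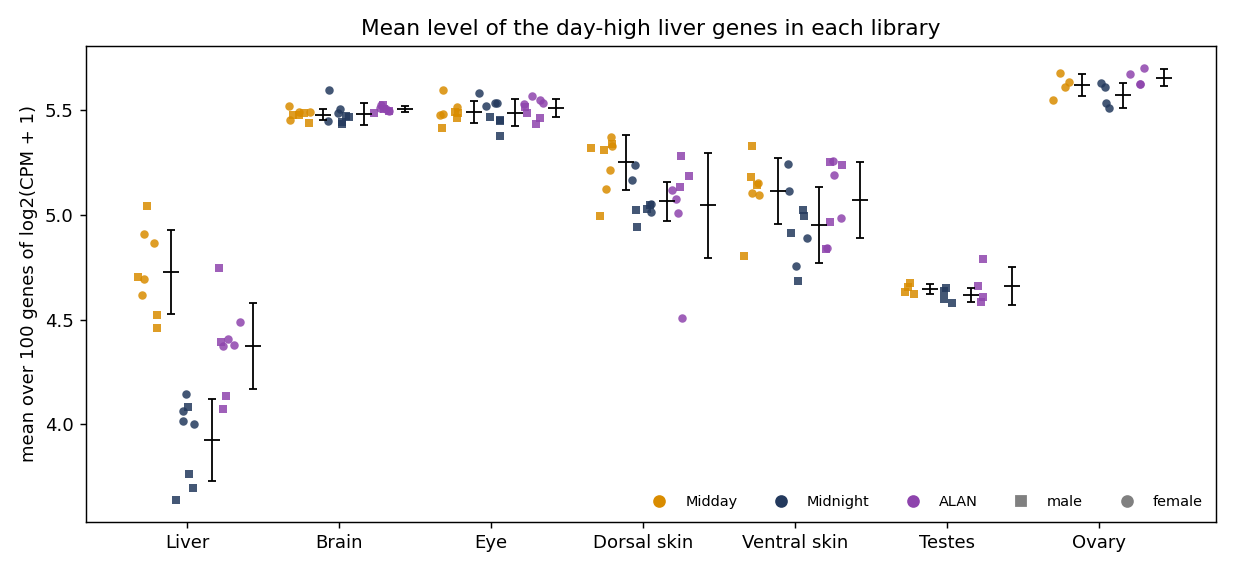
Mean over the 100 day-high genes of log2(CPM + 1), CPM by library total, in each of the 142 libraries, by tissue (x axis) and treatment (colour). Squares are males and circles females, and the bars show the mean and SD of each treatment. The Midday and Midnight livers do not overlap, the ALAN livers lie from 4.07 to 4.75, and brain and eye, which the rule held level, stay between 5.38 and 5.60.

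Fitted with edgeR across all 15654 liver genes that passed the filter on low counts, Midnight against Midday gave a log2 change of -3.08 to -0.39 for the 100 genes, with a median of -0.61 against -0.02 over all genes. Of them, 61 passed an adjusted p under 0.05, all lower at Midnight, where 1.97% of all genes passed. This contrast chose the genes, so nothing is read from that count. The count was 22 without Midnight male 2, and 32 to 40 without any single one of Midday male 3, Midday females 2, 3 and 4, Midnight males 1 and 3, and Midnight females 1, 2 and 3.

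The gene with the highest t statistic (8.05) was ENSACAG00000042833, on the minus strand of the unplaced scaffold GL343287.1 from 1069294 to 1095195, with 5 annotated exons. Its liver level was 12.5, 15.4 and 17.2 CPM at Midday (lowest, median and highest of 8) and 9.20, 10.1 and 11.9 CPM at Midnight. Each Midday liver was above each Midnight liver. In the edgeR fit the change was -0.45 ± 0.14 (SE) and did not pass (adjusted p = 0.101). In the ALAN livers the same gene ran from 6.06 to 20.0 CPM, with a median of 13.3, which is wider than both other groups together. The t statistic that picked this gene favoured a low spread within the Midday and Midnight livers but not within the ALAN livers. Nothing is therefore read from the wider ALAN range. Brain held it at medians of 37.1 to 38.9 CPM and ovary at 107 to 113 CPM in every treatment.

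The gene with the highest mean liver level at Midday was ENSACAG00000010947, on the minus strand of scaffold GL343551.1 from 200465 to 218185, with 9 annotated exons. Its liver level was 74.3, 176 and 326 CPM at Midday and 0.624, 21.6 and 71.5 CPM at Midnight, again with no overlap. In the edgeR fit its change of -3.08 ± 0.65 (SE) was the largest fall among the 100 genes. The ALAN livers spread over most of that span, at 4.94, 59.5 and 216 CPM. In brain its medians were 23.6 to 25.7 CPM and in eye 28.5 to 31.7 CPM. In skin it leaned the other way, with Midnight medians of 6.26 CPM in dorsal and 15.0 CPM in ventral skin against 3.60 and 6.06 CPM at Midday. Neither skin difference passed the test (log2 change 0.44 ± 0.63, adjusted p = 0.858, and 1.08 ± 0.69, adjusted p = 0.551, edgeR).

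**Figure D2:**
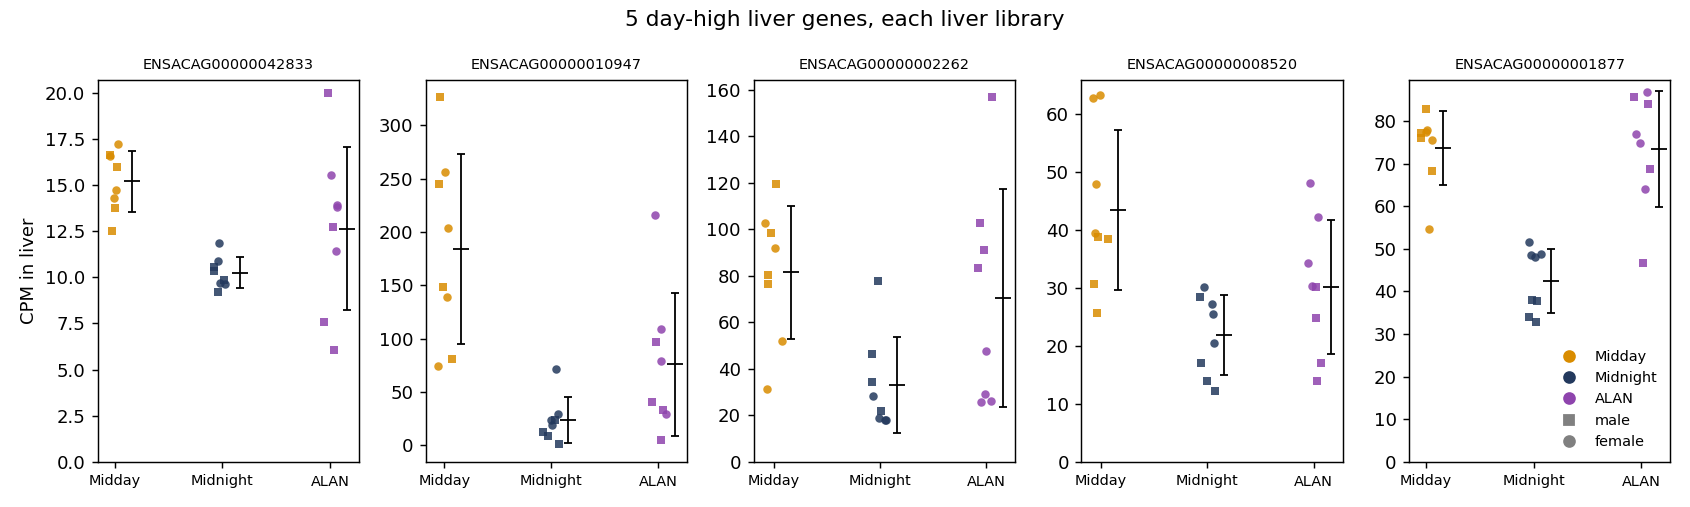
CPM of 5 day-high genes in each of the 24 liver libraries, by treatment, with the mean and SD of each group of 8. Squares are males and circles females. ENSACAG00000010947 runs from 74.3 to 326 CPM at Midday and from 0.624 to 71.5 CPM at Midnight.

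Skins and gonads played no part in the choice of the genes. They are other libraries but came from the same animals whose livers chose the genes, so they are not an independent set. Their values are given as a description. In both skins the genes leaned the same way as in liver, with smaller values. In dorsal skin 81 of the 100 were lower at Midnight, where 49.98% of all 17975 genes tested were, and their median log2 change was -0.23 against 0.00 over all genes. In ventral skin 82 were lower, against 53.3% of 17543 genes, with a median of -0.30 against -0.03.

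No single gene passed the test in either skin: 0 of the 100 had an edgeR adjusted p under 0.05, where 0.195% of all genes did in dorsal and 0.057% in ventral skin. The smallest adjusted p was 0.201 in dorsal and 0.210 in ventral skin. At an unadjusted p under 0.05, 20 genes were lower and 0 higher at Midnight in dorsal skin, where 5.77% of all genes were lower at that p. In ventral skin 24 were lower and 1 higher, where 6.53% of all genes were lower. The 100 genes had to reach a set level in liver, brain and eye, a limit not set for all genes. Here and below, the counts and the shares of all genes are thus not strictly alike. DESeq2 called 2 of the 100 in each skin, where it called 1.64% of all genes fitted in dorsal and 1.13% in ventral skin. The values of single genes ran from -1.24 to 0.53 in dorsal skin, with a median standard error of 0.19, and from -0.82 to 1.08 in ventral skin, with 0.21. In both skins 75 of the 100 were lower, against 38.7% of the 17290 genes tested in both, and 12 were lower in neither. The 2 skins of an animal are not independent samples.

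The mean level of the 100 genes overlapped between the treatments in both skins. In dorsal skin it was 5.00, 5.32 and 5.37 at Midday (lowest, median and highest of 8) and 4.94, 5.04 and 5.24 at Midnight (n = 8). In ventral skin it was 4.80, 5.14 and 5.33 at Midday (n = 7) and 4.68, 4.95 and 5.24 at Midnight (n = 8). Of the Midday libraries, 6 of 8 in dorsal and 1 of 7 in ventral skin were of the low counting class, and none of the Midnight ones. On the scale of the rule, 72 of the 100 were higher in the 2 dorsal Midday libraries of the high class than in the Midnight ones. Their median difference was 0.23, against -0.05 over all genes with a median of at least 2 CPM in that skin. In the 6 ventral ones 80 were higher, with a median of 0.19 against -0.03. The dorsal values rest on only 2 Midday libraries. Over all the alternative fits 74 to 83 genes were lower at Midnight in dorsal skin, with medians of -0.29 to -0.18, and 69 to 84 in ventral skin, with medians of -0.34 to -0.17. The rule required values near 0 in brain and eye but asked nothing of the skins. The 100 genes are not independent of each other. Between pairs of them the median correlation within a treatment in liver was 0.13 at Midday, 0.24 at Midnight and 0.15 under ALAN. Over the genes that met the level criteria of the rule it was 0.01, 0.00 and 0.01. Counts of genes by direction thus do not measure the spread between animals. The genes are not called day-high in liver alone here, and the skin values do not settle it.

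**Figure D3:**
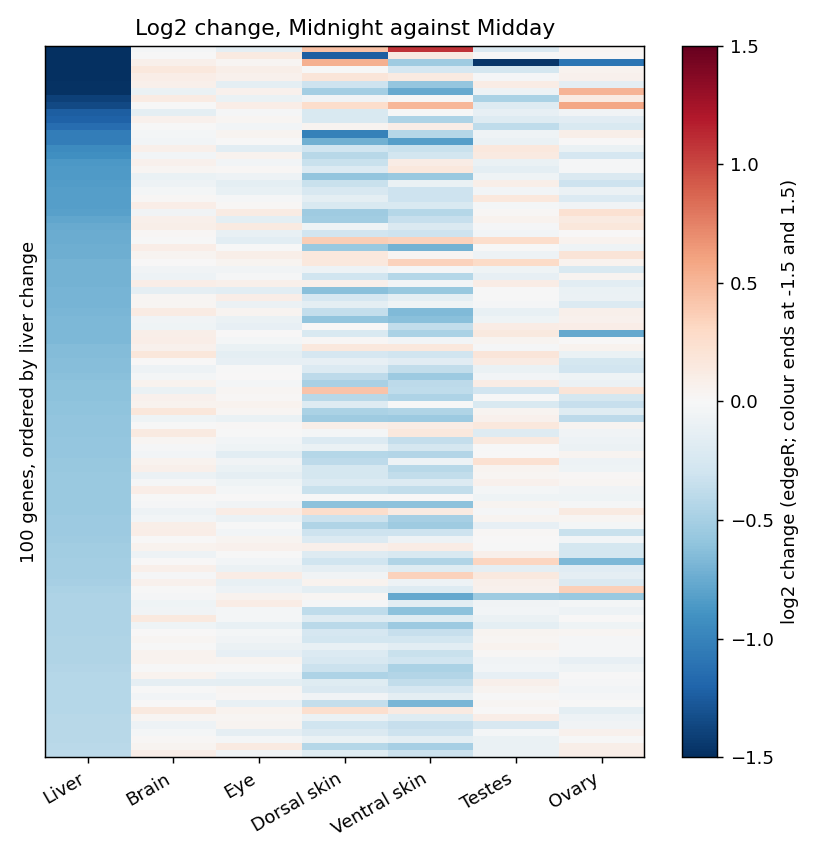
Log2 change from Midday to Midnight (edgeR) of the 100 day-high genes, 1 row each, in the 7 tissues, ordered by the change in liver; blue is lower at Midnight. Liver, brain and eye were used to choose the genes. Both skin columns are mostly blue (81 and 82 genes lower), while testes and ovary are paler (57 and 65 genes lower, medians -0.01 and -0.04).

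In the gonads the median change of the genes lay close to 0. In testes 57 of the 100 genes were lower at Midnight, against 49.1% of all genes tested, and the median log2 change was -0.01. In ovary 65 were lower, against 49.7%, with a median of -0.04. By edgeR 0 of the 100 passed in either organ, where the share of all genes that passed was 0% in both. At an unadjusted p under 0.05, 2 of the 100 were lower in testes, where 2.3% of all genes were, and 3 in ovary, where 1.45% were, with 0 higher in either. DESeq2 called 0 of the 100 in each, and 0.122% of all genes fitted in testes and 0.311% in ovary. Single genes ran from -1.46 to 0.33 in testes and from -1.10 to 0.58 in ovary, where 4 were at or below -0.5 and 2 at or above 0.5. With 4 libraries a group, the median standard error was 0.14 in testes and 0.17 in ovary. Over the alternative fits, 45 to 62 genes were lower in testes, with medians of -0.03 to 0.02, so the direction turned there. In ovary 54 to 72 were lower, with medians of -0.07 to -0.01, all below 0.

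Under artificial light at night, the ALAN livers lay between the Midday and Midnight livers. The mean level of the 100 genes was 4.07, 4.38 and 4.75 (lowest, median and highest of 8 ALAN livers), when counts were divided by the library total, which overlaps the Midday livers above and the Midnight livers below. With TMM it was 4.08, 4.24 and 4.53 under ALAN, which does not overlap the Midday livers (4.56 to 4.90) but does overlap the Midnight livers (3.78 to 4.20). The mean of the ALAN livers lay 56.0% of the way from the Midnight to the Midday mean when counts were divided by the library total, and 35.5% of the way with TMM. In 97 of the 100 genes the ALAN mean was between the other 2 means, and in 3 it was above the Midday mean. In 0 of them was every ALAN liver above every Midnight liver. No share over all genes is given beside these counts, so nothing is read from them. The Midnight and Midday livers in these comparisons are the ones that chose the genes, and a gene picked for a low Midnight and a high Midday mean tends to have other libraries between them.

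By edgeR, ALAN against Midnight in liver gave a median log2 change of 0.21 over the 100 genes, against 0.02 over all genes, and 89 were higher under ALAN. On the scale of the rule, which divides by the library total, all 100 were higher, with a median difference of 0.38, but so were 76.9% of all genes, with a median of 0.18. Only 1 of the 100 passed the test, where 0.358% of all genes did, and 30 were higher and 0 lower at an unadjusted p under 0.05, where 7.95% of all genes were higher at that p. DESeq2 called 3, where it called 2.1% of all genes fitted. ALAN against Midday gave 97 genes lower under ALAN, with a median of -0.40, and 12 passed, all lower, where 0.933% of all genes passed. Of these 12, 11 also passed between Midnight and Midday. DESeq2 called 31 of the 100 for ALAN against Midday, where it called 3.4% of all genes fitted. The 12 became 6 without Midday female 2. The Midnight and Midday livers that ALAN is set against here are the ones that chose the genes. The direction of both contrasts was thus partly set in advance, and nothing is read from these counts. Total counts of the ALAN livers (12196415 to 14697867) were all below those of the other livers (17129400 to 28371289). What the counting class and the total counts contribute to these differences cannot be told apart from the light.

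The gene that passed between ALAN and Midnight, named after its value was seen, was ENSACAG00000001877, on the minus strand of scaffold GL343238.1 from 686735 to 720252, with 18 annotated exons. Its liver level was 54.8, 76.6 and 82.7 CPM at Midday, 32.8, 43.1 and 51.5 CPM at Midnight and 46.7, 76.0 and 86.7 CPM under ALAN. Of the 8 ALAN livers, all but the lowest were above every Midnight liver. The change was 0.59 ± 0.13 (SE; edgeR adjusted p = 0.0476), and the call was lost when any 1 of 18 of the 24 livers was left out, that is, all but Midday male 1, Midday female 1, Midnight male 4, ALAN males 1 and 4 and ALAN female 4. In the testes it was far more abundant, at medians of 512 to 527 CPM in the 3 treatments.

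In skins and gonads no gene passed between ALAN and Midnight by edgeR. In dorsal skin 71 of the 100 were higher under ALAN by edgeR, where 49.98% of all genes were, with a median of 0.13, and in ventral skin 65, where 45.9% were, with a median of 0.13. By edgeR 0 passed in either, where 0.0223% of all genes passed in dorsal and 1.92% in ventral skin. At an unadjusted p under 0.05, 16 were higher and 1 lower in dorsal skin, where 6.07% of all genes were higher at that p, and 20 were higher and 1 lower in ventral skin, where 7.52% were higher. DESeq2 called 1 in dorsal skin (2.06% of all genes fitted) and 4 in ventral skin (5.57%). In dorsal skin the count depended on the scaling: with CPM by library total 49 of the 100 were higher, with a median difference of -0.01, where 32.1% of all genes were higher, with a median of -0.13. In testes 52 were higher and 0 passed (0.43% of all genes), with 5 higher and 1 lower at an unadjusted p under 0.05, where 6.11% of all genes were higher, and 1 called by DESeq2 (3.27% of all genes). In ovary 56 were higher and 0 passed (0% of all genes), with 8 higher and 5 lower at that p, where 11.9% of all genes were higher, and 2 called by DESeq2 (2.04% of all genes). ALAN libraries were mostly of the low counting class in ventral skin (5 of 8), testes (4 of 4) and ovary (3 of 4), and none of 7 in dorsal skin.

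**Figure D4:**
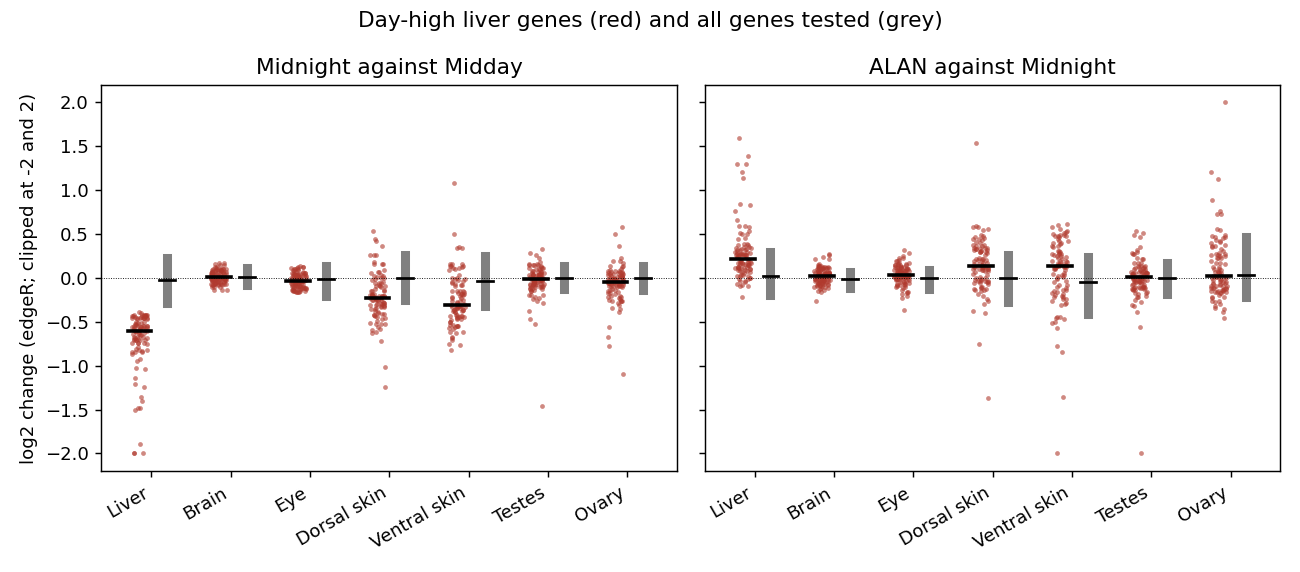
Log2 changes (edgeR) of the 100 day-high genes (red points, black line at their median) and of all genes tested (grey bar from the lower to the upper quartile, black line at the median) in 7 tissues, for Midnight against Midday (left) and ALAN against Midnight (right), clipped at -2 and 2. In liver, brain and eye the left panel shows what chose the genes, and the Midnight libraries of these tissues are also in the right panel. In the skins the medians of the left panel are -0.23 and -0.30.

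Both sexes showed the day-night difference in liver. Fitted by sex, the log2 change from Midday to Midnight was below 0 in all 100 genes in males, with a median of -0.55, and in all 100 in females, with a median of -0.66. As both sexes entered the choice, that is a description. With CPM by library total, the mean level of the 100 genes was 4.46 to 5.04 in Midday males and 4.62 to 4.91 in Midday females. It was 3.64 to 4.08 in Midnight males and 4.00 to 4.15 in Midnight females (n = 4 each). The 5.04 was Midday male 1, a library that stood apart, and with TMM it was at 4.61. With TMM the Midday males ran from 4.56 to 4.78 and the Midday females from 4.63 to 4.90. The ALAN males ran from 4.07 to 4.75 and the ALAN females from 4.37 to 4.49. Which sex had the wider spread under ALAN turned with the scaling: with TMM the males ran from 4.22 to 4.35 and the females from 4.08 to 4.53. The difference between the sexes in the day-night change had a median of 0.07 over the 100 genes, with a median standard error of 0.31. By edgeR 0 of them passed, where 0% of all genes passed. At an unadjusted p under 0.05 the count was 0, against 5.43% of all genes, and DESeq2 called 0, against 0.0958% of all genes fitted. The smallest adjusted p among them was 0.875. The t statistic that chose the genes pooled the sexes and favoured a low spread within Midday and within Midnight livers. Genes whose livers differ by sex at either time were thus less likely to be kept, so nothing is read from these low counts.

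**Figure D5:**
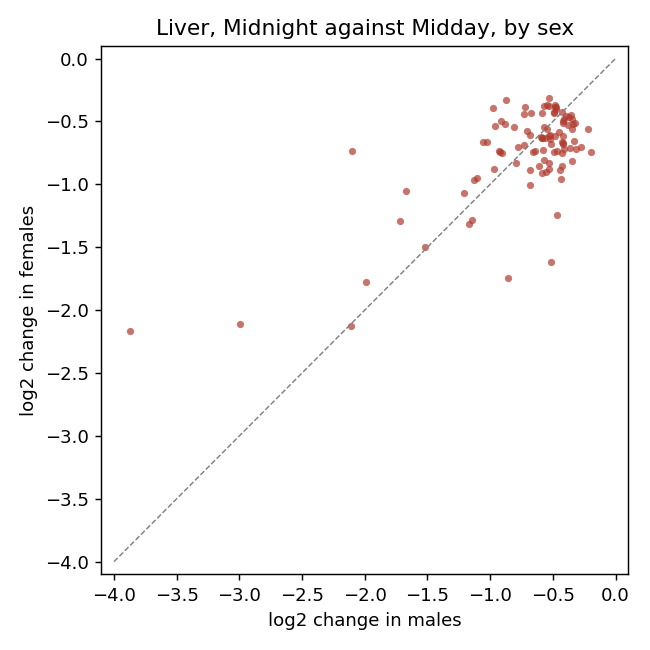
Log2 change from Midday to Midnight in liver (edgeR) of the 100 day-high genes in males (x axis) and females (y axis); the dashed line marks equal change. All 100 points are below 0 in both sexes, with medians of -0.55 in males and -0.66 in females.

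Averaged over treatments, 69 of the 100 genes were lower in male than in female livers, against 45.8% of all genes tested, with a median log2 difference of -0.11 against 0.04. By edgeR 13 passed, 12 higher in females and 1 higher in males. That is near the share of all liver genes that passed, 13.6%. The choice of the genes favoured a low spread within a treatment in liver, which works against sex differences, so the 2 shares are not strictly alike. The 13 became 8 without Midday female 2, without Midday female 4 and without ALAN female 3. In brain 2 of the 100 passed, both higher in females, where 2.48% of all genes passed, and in eye 3, all higher in females, where 2.73% did. DESeq2 called 18 of the 100 in liver, 4 in brain and 8 in eye, where it called 18%, 3.31% and 5.42% of all genes fitted. The 2 became 4 without Midday female 1 in brain, and the 3 became 5 without Midnight male 1 in eye.

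The gene that was higher in males was ENSACAG00000002262, on the plus strand of chromosome 2 from 43549988 to 43636438, with 20 annotated exons (log2 difference 1.13 ± 0.27, edgeR adjusted p = 0.00666). Its liver level was 76.4 to 119 CPM in Midday males and 31.3 to 103 CPM in Midday females, and 21.7 to 77.7 CPM in Midnight males and 17.9 to 28.2 CPM in Midnight females. Under ALAN the sexes did not overlap, at 83.3 to 157 CPM in males and 25.7 to 47.8 CPM in females (n = 4 each). The gene was named for its sex difference in a fit that holds these same livers, so nothing is read from that separation. Whether the effect of light differs between the sexes in this gene was not tested.

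The gene with the largest called difference toward females was ENSACAG00000008520, on the plus strand of scaffold AAWZ02038357.1 from 407 to 5323, with 7 annotated exons (log2 difference -0.67 ± 0.16, adjusted p = 0.00665, edgeR). Its liver level was 25.6 to 38.9 CPM in Midday males and 39.5 to 63.4 CPM in Midday females, without overlap. At Midnight it was 12.2 to 28.4 CPM in males and 20.6 to 30.2 CPM in females, which overlap. Under ALAN it was 14.0 to 30.2 CPM in males and 30.3 to 48.1 CPM in females. This gene too was named for its sex difference in these same livers, so nothing is read from where the sexes overlap.

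Across tissues the day-high genes had a low level in liver, as had many of the genes that met the level criteria of the rule. The median over the 100 genes of each gene's median CPM was 20.0 in liver, 21.0 in testes, 36.4 in ventral skin, 37.3 in dorsal skin, 45.6 in brain, 49.6 in eye and 56.5 in ovary. Liver was the lowest tissue for 51 of them and testes for 36, and ovary was the highest for 38, brain for 20 and eye and testes for 14 each. Among the 9722 genes that met the level criteria of the rule, liver was lowest in 44.3% and ovary highest in 36.8%. The counts of 51 and 38 are near these shares, so no trait of the day-high genes is read from them. At Midday the 50 most abundant liver genes took a median of 45.8% of the counts in liver, 3.52% in brain and 3.60% in eye. The part of this in the low CPM of the other genes in liver was not tested. Even at Midday the mean level of the 100 genes in the highest liver (5.04) was below that of every brain and eye library. Per length, their liver levels at Midday ran from 2.62 to 215 TPM, with a median of 22.3.

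The genes lay on 62 sequences of the genome, with at most 2 on any 1 unplaced scaffold. Among neighbouring members 5 pairs lay within 100000 bases of each other, and the spans of 22 members overlapped another gene ID. No share over all genes is given beside these counts, so nothing is read from them. Of the 100, 40 lay on chromosomes 1 to 6 and 59 on unplaced scaffolds, against 49.9% and 48.5% of the genes that met the level criteria, and 1 lay on linkage group b. The median length of a gene in the deposited table was 1944.5 bases, against 1945, and both had a median of 9 exons. The genome build is not given in the sources used here, and the coordinates are those of the deposited table.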

How the data were processed

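The deposited table holds unnormalized read counts for each gene ID, made by the authors with tools that the submitters' processing notes list as Trimmomatic, FastQC, STAR 2.7.11a, featureCounts and Subread. The sources used here do not give the build, annotation release, strand setting or handling of multiply mapped reads, so counts of overlapping genes and close copies can be mixed. Its other columns are gene coordinates and lengths (unit other), used for TPM. Replicates are separate animals.

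Each tissue was fitted in edgeR 4.0.16 (R 4.3.3): TMM scaling, genes kept by filterByExpr over the groups, and a robust quasi-likelihood model with terms for treatment and sex (a mean per treatment and sex for the difference between sexes), Benjamini-Hochberg adjustment over all genes of the tissue and calls at an adjusted p under 0.05. All 100 genes passed the filter in every tissue. SE is the log2 change over the square root of F. Only the edgeR model for Midnight against Midday in liver was tested on simulated counts. Tables and figures used Python 3.11.15, pandas 2.3.3 and matplotlib 3.10.9.

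The members and lists were chosen with earlier results of these data known. IDs were named by rule (highest t statistic in liver, highest Midday liver CPM, and the largest sex difference called in each direction), except 1 named after its value was seen. The planned lists and markers by gene symbol were not run, since no ID matched a name. No animal was in more than 1 treatment, so equal replicate numbers pair no animals. Over 24 same-numbered pairs of libraries, deviations correlated at -0.31 to 0.65, with 5 over 0.1. The highest was between Midday male 1 and ALAN male 1, the animals whose livers stood apart. Alternatives were another normalization, no filter, DESeq2 1.42.0, a replicate block, no sex term, the 2 groups alone, the counting class as a term, the 50 genes of highest t statistic, medians over Midday and Midnight only, and each library left out. Fits of the high counting class alone and without the 15 libraries that stood apart (over 5 median absolute deviations below the median correlation of their tissue) were added after the data were seen.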

Additional observations from a re-analysis of the deposited data

Results flagged for a closer look

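Of 36 groups of libraries examined, 3 held 1 library far from the others, and chance alone gives about 1 in 20. In brain, the mean log2(CPM + 1) of the 100 day-high genes was 5.60 in Midnight female 4, against 5.51 in the next library of the Midnight group. Genes enriched in ovary took 1.86% of the counts of that brain library, against 0.140% to 0.159% in the other Midnight brains; their part in the value was not tested. In dorsal skin, it was 4.51 in ALAN female 2, against 5.01 in the next lowest ALAN library, with CPM by library total. With TMM the same library was at 5.18, within the range of its group (5.00 to 5.38). In liver, ENSACAG00000010947 stood at 71.5 CPM in Midnight female 2, against 29.1 CPM in the next highest Midnight liver.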

How the results depend on the processing

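Leaving out each library in turn, the number of the 100 genes called ran from 22 to 68 (Midnight against Midday), 0 to 1 (ALAN against Midnight), 6 to 14 (ALAN against Midday) and 8 to 19 (sexes) in liver, 0 to 1 and 0 to 2 in ventral skin for Midnight against Midday and ALAN against Midnight, 2 to 4 in brain and 2 to 5 in eye for the sexes, and was 0 throughout for dorsal skin, both gonads and the difference between sexes in liver. In ventral skin, the 1 for Midnight against Midday and the 2 for ALAN against Midnight came without Midday male 2, and 1 was called for ALAN against Midnight without each of Midnight female 2 and ALAN females 1 and 2. With no filter on low counts the liver counts were 36 for Midnight against Midday, 0 for ALAN against Midnight and 7 for the sexes. With no sex term they were 36 and 0 for the first pair. DESeq2 called 2 in each skin for Midnight against Midday; 3 in liver, 1 in dorsal skin, 4 in ventral skin, 1 in testes and 2 in ovary for ALAN against Midnight; 31 for ALAN against Midday in liver; and 4 in brain and 8 in eye for the sexes. With the 2 groups alone the counts were 1 in dorsal skin for Midnight against Midday, and 0 and 4 in liver for ALAN against Midnight and against Midday. Of the 50 genes of highest t statistic, 1 was called for ALAN against Midnight in liver, and 4 in liver and 3 in eye for the sexes. Without the libraries that stood apart, 5 were called in eye for the sexes and 50 in liver for Midnight against Midday. Shares of all genes called are given above for the main fits and DESeq2 only. Nothing about the 100 genes is therefore read from the counts under the other settings. The cause of these shifts was not tested.

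With the replicate block, which does not pair animals here, 0 were called for ALAN against Midnight in liver, 60 for Midnight against Midday and 13 for ALAN against Midday. In all, 111 of 134 counts under settings other than a left-out library were within 1.5 times the reported one. The counting class could not be fitted as a term in liver and testes, where it equals the ALAN group.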

Other observations

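The genes next to the 100 leaned alike in the skins. Among the 247 genes that met the rule with a lower t statistic, the median log2 change from Midday to Midnight was -0.14 in dorsal skin (176 lower) and -0.19 in ventral skin (183 lower). For the 91 genes that met the mirrored rule, higher in liver at Midnight and level in brain and eye, it was 0.22 in dorsal skin (29 lower) and 0.19 in ventral skin (28 lower). Over all genes tested the medians were 0.00 and -0.03. No test was run on these lists. In liver, with CPM by library total, the mean log2(CPM + 1) of the 91 night-high genes was 4.57 to 5.22 at Midday, 5.38 to 5.96 at Midnight and 5.36 to 5.57 under ALAN. On that scale the ALAN livers lay within or just below the range of the Midnight livers. Their median ALAN minus Midnight difference was -0.22, against 0.18 over all genes with a liver median of at least 2 CPM. For Midday minus Midnight it was -0.66 against 0.11. The part of the scaling in the place of the ALAN livers was not tested, and the counting class cannot be told apart from the light there. The Midday and Midnight livers chose these 91 genes too, so nothing is read from where the ALAN livers lay.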
